A study of Mus musculus with 13 samples.

Results

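Early lymphoid priming genes are 9 genes whose transcripts mark multipotent blood progenitors that lean towards the lymphoid lineages: Dntt, Il7r, Arpp21, Notch1, Satb1, Ikzf1, Bcl11a, Cd27 and Lsp1. They were taken by the platform's gene symbol, which gave 31 probes among the 45281 on each array and 9 of the 19057 genes named there. Of these, 17 probes of 8 genes were detected on at least 2 arrays (detection p under 0.01) and entered the tests, among 18652 probes tested in all. Another 13 probes were detected on none of the 13 arrays, with normalized log2 signals between 4.41 and 5.34, and 1 was detected on a single array.

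The arrays held RNA of hematopoietic stem and progenitor cells sorted from C57BL/6 mice that differed in c-Cbl, whose protein ubiquitinates activated receptor tyrosine kinases so that they are degraded. A/- cells carried an allele written A, which the labels do not spell out, over the - allele, -/- cells carried only the - allele, and +/+ cells were the controls. A/- and +/+ cells gave 1 array each for LTHSC (sorted as CD34- and Flt3-), STHSC (CD34+ and Flt3-) and MPP (CD34+ and Flt3+), all of which are Sca1-positive and are called LSK cells, and for the Sca1-negative CMP (CD34+ and CD16/32-), GMP (CD34+ and CD16/32+) and MEP (CD34- and CD16/32-). All cells were lineage-negative and c-Kit-positive. The -/- genotype gave 1 array, of LTHSC. Each array was 1 sample, and the labels do not say how many mice or what ages it held. Depth has no counterpart on an array. The number of arrays limits the precision, and p-values measure only the spread between these samples.

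Lymphoid priming is the low-level transcription of lymphoid genes in progenitors that can still form other blood cells. It is best known from the Flt3-positive part of the multipotent progenitors, where the recombination machinery, the IL-7 receptor and Notch receptors become active before B or T cell commitment. Among the members, Dntt makes terminal deoxynucleotidyl transferase, which adds bases at the joints of antigen receptor genes. Il7r makes the alpha chain of the IL-7 receptor, Notch1 the receptor that starts the T cell programme, and Cd27 a receptor of the TNF receptor family that binds CD70. Satb1 organises chromatin, Ikzf1 makes the zinc finger factor Ikaros, and Bcl11a makes a zinc finger repressor needed for B cells. Arpp21 makes a phosphoprotein best known from neurons, and Lsp1 an actin-binding protein of leukocytes.

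Windows of 250 bases before the transcription start are shown for Dntt and Il7r, whose levels ran alike across the arrays (r = 0.97), and for Bcl11a, whose levels did not follow theirs. They are RefSeq sequences of build GRCm38.p6, read 5′ to 3′ on the gene's strand, and lie at chr19:41029025-41029274 on the plus strand (Dntt), chr15:9529877-9530126 on the minus strand (Il7r) and chr11:24080445-24080694 on the plus strand (Bcl11a). Capitals mark a match to 1 of 4 motifs searched on both strands.
Dntt upstream window: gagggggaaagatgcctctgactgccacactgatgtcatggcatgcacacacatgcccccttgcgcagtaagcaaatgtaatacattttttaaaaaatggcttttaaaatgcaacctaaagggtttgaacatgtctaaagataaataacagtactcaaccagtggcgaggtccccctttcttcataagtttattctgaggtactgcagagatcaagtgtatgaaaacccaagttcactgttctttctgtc
Il7r upstream window: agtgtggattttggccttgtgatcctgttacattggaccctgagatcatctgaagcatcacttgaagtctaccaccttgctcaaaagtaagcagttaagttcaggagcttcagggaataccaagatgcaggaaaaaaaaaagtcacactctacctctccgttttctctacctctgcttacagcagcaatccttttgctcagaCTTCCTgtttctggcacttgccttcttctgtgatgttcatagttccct
Bcl11a upstream window: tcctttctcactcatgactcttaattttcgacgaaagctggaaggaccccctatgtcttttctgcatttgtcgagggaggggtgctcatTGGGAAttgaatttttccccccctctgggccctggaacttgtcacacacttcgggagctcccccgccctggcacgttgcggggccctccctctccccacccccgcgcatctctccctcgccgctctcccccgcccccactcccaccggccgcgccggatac
The motifs were TGGGAA (Ikaros), CAGGTG (E protein), TGTGGT (Runx) and AGGAAG (PU.1), none of which contains another, though their ends can overlap. The Dntt window held none of these letters. The Il7r window held the PU.1 letters on the opposite strand, 48 bases before the start, and the Bcl11a window held the Ikaros letters 161 bases before the start. Over all 32851 windows of this length, 29.485% held the PU.1 letters, 21.594% the Ikaros letters, 17.22% the E protein letters and 14.045% the Runx letters. Of 21 windows of 8 members, 6, 2, 5 and 3 held them in that order. A match of letters is a description and no binding site was measured.

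The sorted populations were set against marker lists before the members were compared. Kit was detected on all 13 arrays, at 12.60 to 13.91. Flt3, which defines MPP, was detected on none, at 4.54 to 5.25. Cd34 had a normalized signal of 9.08 and 9.20 in A/- and +/+ STHSC, which were sorted as CD34-positive. It was at 10.14, 10.21 and 10.01 in A/-, -/- and +/+ LTHSC, which were sorted as CD34-negative. As normalized, this transcript thus ran against the sort gates of both. That order rests on the normalization, as unnormalized medians were 51.7 to 52.9 on the LTHSC arrays and 176 and 191 on the STHSC arrays. The platelet factor gene Pf4 was at 14.66 in A/- STHSC and 14.33 in +/+ STHSC, above the 8.99 to 13.48 of the other arrays. Summed over 14 granulocyte and monocyte markers, the normalized signal was 4997 on the A/- MEP array and 161205 on the +/+ MEP array, where the other 11 arrays held 125836 to 308011. Over 10 erythroid and megakaryocyte markers it was 44118 in A/- GMP and 14946 in +/+ GMP. Of 7 markers of mature lymphocytes, Ms4a1, Cd4, Cd8a and Ncr1 were detected on no array. Cd3e was detected on both STHSC arrays (mean 7.13) and on neither MPP array, and Klrd1 on both MPP arrays (mean 6.99). In all, 3 of the 7 were detected on each STHSC array and 2 on each MPP array. Nkg7 was detected on all 13 (7.39 to 14.10), and the summed signal ran from 332 in A/- MEP to 17759 in +/+ GMP. The MEP and GMP pairs thus differed within themselves, and results are given with and without the +/+ MEP and A/- GMP arrays, or both pairs. In sorted bulk cells, fewer cells of a type and less RNA per cell cannot be told apart.

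**Figure D1:**
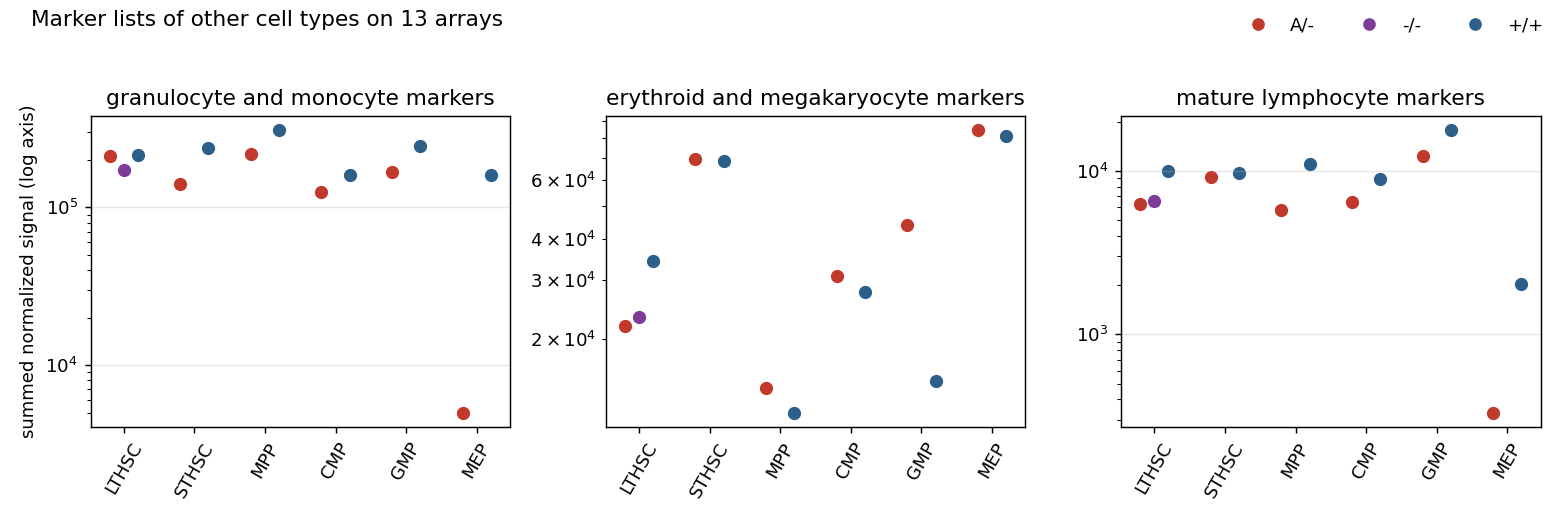
Summed normalized signal of marker genes (vertical log axis) for each population (horizontal axis), with 1 point per array coloured by genotype. The granulocyte and monocyte sum is 4997 in A/- MEP and 161205 in +/+ MEP, and the erythroid and megakaryocyte sum is 44118 in A/- GMP and 14946 in +/+ GMP.

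Levels below are normalized log2 signals of the brightest probe of a gene, and each gene is compared only with itself. Of 8 such probes, 6 had their highest population mean in MPP, as did 9 of all 17 tested probes. The exceptions were Cd27, highest in LTHSC, and Bcl11a, highest in MEP. Unnormalized medians were 51.7 to 52.9 on the LTHSC arrays and 148.31 to 191 on the others. The place of LTHSC in each order below therefore rests on the normalization. Unnormalized, the Cd27 probe was at 4960 to 5191 in LTHSC and at 12393 (A/-) and 17542 (+/+) in MPP.

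Dntt, the lymphoid polymerase (probe ILMN_1232383), was at 7.40 (LTHSC), 6.97 (STHSC), 12.16 (MPP), 10.25 (CMP), 8.09 (GMP) and 4.80 (MEP) on the A/- arrays. In +/+ cells Dntt was at 6.99, 6.67, 11.40, 9.26, 4.92 and 5.25 over the same populations. It was not detected in +/+ GMP, in either MEP array or in -/- LTHSC (5.46). Both MPP arrays lay above every other array, both CMP arrays came next, and the A/- and +/+ arrays of LTHSC lay above those of STHSC. The STHSC and GMP arrays overlapped, as did those of GMP and MEP. Dntt spanned 7.37 log2 units over the 12 A/- and +/+ arrays.

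Il7r (probe ILMN_2680827) had the same first places, with MPP above CMP. It was at 6.58 (LTHSC), 6.85 (STHSC), 9.05 (MPP), 8.11 (CMP), 6.30 (GMP) and 5.32 (MEP) on the A/- arrays. In +/+ cells Il7r was at 6.50, 6.44, 8.76, 7.28, 5.09 and 5.65. The signal in +/+ GMP and in both MEP arrays was not detected, and STHSC overlapped LTHSC. Of its 4 other probes, 3 were detected on no array and ILMN_2659739 only on the A/- MPP array.

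Arpp21 (probe ILMN_1241866) was detected on 7 arrays. It was at 6.38 (LTHSC), 5.67 (STHSC), 9.40 (MPP), 7.69 (CMP), 6.27 (GMP) and 5.37 (MEP) on the A/- arrays. In +/+ cells Arpp21 was at 6.75, 5.31, 8.78, 6.59, 4.54 and 5.88. Only MPP stood clear of all the others, and CMP overlapped LTHSC. The probe was not detected in either STHSC or MEP array, in +/+ GMP or in -/- LTHSC. A dimmer probe of the gene, ILMN_1240537, was detected on both MPP arrays and on +/+ LTHSC, and 7 further probes were detected nowhere.

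Notch1 (probe ILMN_1241915) was at 9.60 (LTHSC), 7.63 (STHSC), 10.92 (MPP), 10.20 (CMP), 9.14 (GMP) and 4.52 (MEP) on the A/- arrays. In +/+ cells Notch1 was at 9.53, 8.26, 10.59, 9.99, 9.40 and 6.74. On these arrays the populations did not overlap and ran MPP, CMP, LTHSC, GMP, STHSC and MEP in falling order, while -/- LTHSC (9.19) lay within the GMP range. A/- MEP was the only one of all 13 arrays on which the probe was not detected.

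Satb1 (probe ILMN_1220726) was detected on all 13 arrays and followed the same order without overlap on the A/- and +/+ arrays, where -/- LTHSC (11.02) lay below GMP. It was at 11.67 (LTHSC), 9.98 (STHSC), 13.57 (MPP), 12.47 (CMP), 11.40 (GMP) and 7.27 (MEP) on the A/- arrays. In +/+ cells Satb1 was at 11.41, 10.17, 12.93, 12.29, 11.21 and 8.48. STHSC was lower than LTHSC and GMP, so the gene's low points lay in STHSC and MEP. Its second probe, ILMN_1240428, was also highest in MPP and was detected on 4 arrays.

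Cd27 (probe ILMN_3128992) was at 14.11 (LTHSC), 12.83 (STHSC), 13.71 (MPP), 13.20 (CMP), 12.31 (GMP) and 7.81 (MEP) on the A/- arrays. In +/+ cells Cd27 was at 14.01, 12.69, 13.68, 13.15, 12.19 and 9.21. LTHSC was highest without overlap, and MEP lay over 2 log2 units below all other populations. By its other probes, ILMN_1233589 and ILMN_3052501, the MPP and LTHSC arrays overlapped at the top.

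Ikzf1 (probe ILMN_2584685) spanned 1.31 log2 units. It was at 12.39 (LTHSC), 12.16 (STHSC), 13.47 (MPP), 12.83 (CMP), 12.44 (GMP) and 12.88 (MEP) on the A/- arrays. In +/+ cells Ikzf1 was at 12.41, 12.32, 12.89, 12.79, 12.39 and 13.02. MPP and MEP overlapped at the top and STHSC was lowest. The 4 other tested probes of the gene had their highest mean in MEP, not MPP, so its probes disagree on the place of MEP.

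Bcl11a (probe ILMN_2712044) spanned 1.70 log2 units and differed in order from the other members. It was at 11.73 (LTHSC), 11.73 (STHSC), 11.60 (MPP), 11.42 (CMP), 11.25 (GMP) and 12.14 (MEP) on the A/- arrays. In +/+ cells Bcl11a was at 11.82, 11.88, 11.45, 11.32, 10.44 and 12. MEP was highest and GMP lowest, in each case without overlap with the neighbour in the order. By its second probe, ILMN_1257463, LTHSC was highest and GMP overlapped CMP at the low end. Lsp1 had 1 probe, at 4.52 to 5.17 and detected on none of the 13 arrays, so nothing can be said of its level beyond that.

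**Figure D2:**
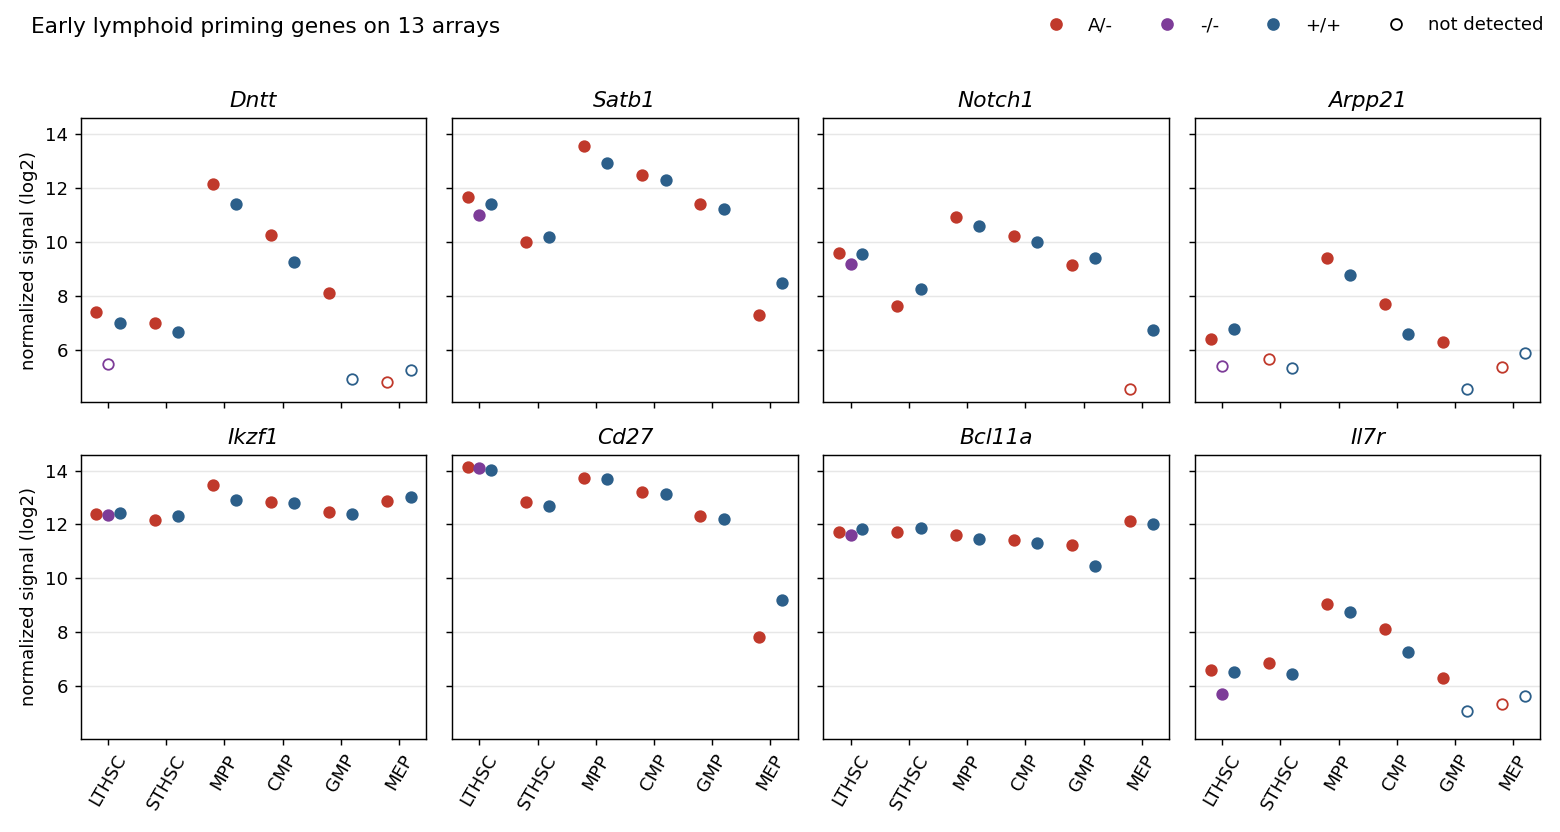
Normalized log2 signal (vertical axis) of the brightest probe of each of the 8 measured genes in 6 populations (horizontal axis), with 1 point per array coloured by genotype and open points for signals that were not detected. Dntt, Il7r, Arpp21, Notch1 and Satb1 peak in MPP in both genotypes, while Cd27 is highest in LTHSC and Bcl11a in MEP.

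Several members ran alike across the arrays. Across the 12 A/- and +/+ arrays, Pearson's r was 0.97 between Dntt and Il7r, 0.93 between Dntt and Arpp21 and 0.93 between Arpp21 and Il7r. It was 0.98 between Satb1 and Notch1, 0.89 between Notch1 and Cd27 and 0.87 between Satb1 and Cd27. Bcl11a lay between -0.53 and 0.16 with each of the others. These arrays share populations, 2 arrays each, and the values are a description. Among tested probes of other genes, the pattern most like Dntt was that of Apcdd1 (r = 0.95), followed by Rgl1 and Lpar2 (both 0.94). Rgl1 was also among the nearest to Il7r (0.94), with Jakmip1 (0.94) and Il17ra (0.94), and Il17ra was among the nearest to Arpp21 (0.91), after Sstr2 (0.92). Nearest to Satb1 was Il10ra (0.99) and to Notch1 Lcp1 (0.98), and 5031439G07Rik was among the 3 nearest to both. Nearest to Cd27 was Rassf5 (0.99), to Ikzf1 Rybp (0.95) and to Bcl11a Zfp36l1 (0.97).

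MPP was compared with STHSC for the rise on entry into the Flt3-positive progenitors. STHSC here means the arrays so labelled, whose Pf4 levels and, as normalized, Cd34 levels set them apart as given above. The labels do not settle why. For the 6 genes highest in MPP, both MPP arrays also lay above all 3 LTHSC arrays. The largest differences among members were those of Dntt and Arpp21, followed by Satb1, Notch1 and Il7r, and Ikzf1 rose by less than a factor of 2. Of 17 tested member probes, 10 were higher in MPP and 0 lower, and they belonged to 7 of 8 genes. Over all tested probes 2.46% were called higher and 2.17% lower, by limma with Benjamini-Hochberg adjusted p under 0.05. The median difference was 2.53 over the members' brightest probes and -4.3e-05 over all tested probes. A probe detected mainly where it is high passes the detection filter through those arrays, as ILMN_1240537 of Arpp21 does with 3 arrays, 2 of them MPP, so the counts describe the probes that passed. The members were also chosen with earlier results of these data known. Their counts and medians beside those of all probes are therefore a description and no test of the set, here and in the committed progenitors below.

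Dntt averaged 11.78 in MPP and 6.82 in STHSC, a 31.0-fold difference (4.96 on the log2 scale, SE 0.65, limma adjusted p = 0.00438). Satb1 was 9.02-fold higher in MPP (3.17, SE 0.34, limma adjusted p = 0.00247) and Notch1 was also higher (2.81, SE 0.50, adjusted p = 0.0140). Arpp21 was not detected in STHSC and was at least 9.98-fold higher in MPP (limma adjusted p = 0.00446). Such bounds take the lowest signal detected on an array in place of a signal that was not, also where only some arrays of a group lack a detected signal. The p-values given beside bounds, here and below, come from the fit on the signals as measured and do not test the bounds. Il7r was 4.79-fold higher (2.26, SE 0.35, limma adjusted p = 0.00717) and Ikzf1 1.92-fold higher (0.94, SE 0.17, adjusted p = 0.0145). For each of these 6 probes both MPP arrays lay above both STHSC arrays.

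Cd27 was called by ILMN_1233589 (1.30, SE 0.19, limma adjusted p = 0.00563) and not by its brightest probe (0.93, SE 0.32, adjusted p = 0.136) or by ILMN_3052501 (1.04, SE 0.29, adjusted p = 0.0745). Ikzf1 was called by 2 of 5 probes. Bcl11a differed by -0.28 (SE 0.21, limma adjusted p = 0.485, 95% interval -0.74 to 0.18). The calls rest on few arrays. Members called numbered 0 without A/- STHSC, 1 without A/- MPP, 3 without +/+ STHSC and 7 without +/+ MPP, while the Dntt difference stayed between 4.62 and 5.29 and that of Satb1 between 2.78 and 3.57. Without the A/- GMP and +/+ MEP arrays 7 members were called, here by Cd27's brightest probe too.

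Other lymphoid genes did not all follow in this comparison. Of 14 tested specification factors, 3 were higher in MPP and 0 lower, namely Sox4 (1.29), Spi1 (1.21), which encodes PU.1, and the E protein gene Tcf4 (0.62). Of 5 tested T lineage genes 0 were higher and 3 were lower, the CD3 chain genes Cd3d (-1.50), Cd3g (detected on 1 of 2 MPP arrays, at least 3.45-fold lower) and Cd3e (on neither, at least 2.82-fold lower). Limma called 0 of 9 B lineage genes, of which 3 had an unadjusted p under 0.05, and 0 of 6 receptor and signalling genes, also with 3. The median of the B lineage genes was 0.82. Rag1, which cuts antigen receptor genes, was detected in A/- MPP (7.06), +/+ MPP (6.62) and +/+ CMP (6.18) and on no other array, at least 2.10-fold above STHSC in MPP (limma adjusted p = 0.0609). Of 7 Notch pathway genes 1 was called, Nrarp, an inhibitor induced by Notch, which was lower in MPP (-1.73). Mef2c differed by -0.45 (SE 0.25, limma adjusted p = 0.339). Beside these values, 7 of 10 erythroid and megakaryocyte markers were lower in MPP than in STHSC, with sums of 14195 and 12017 on the A/- and +/+ MPP arrays against 69486 and 68317 on the STHSC arrays, and 3 of 14 granulocyte and monocyte markers were higher. Their part in the members' differences was not tested.

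**Figure D3:**
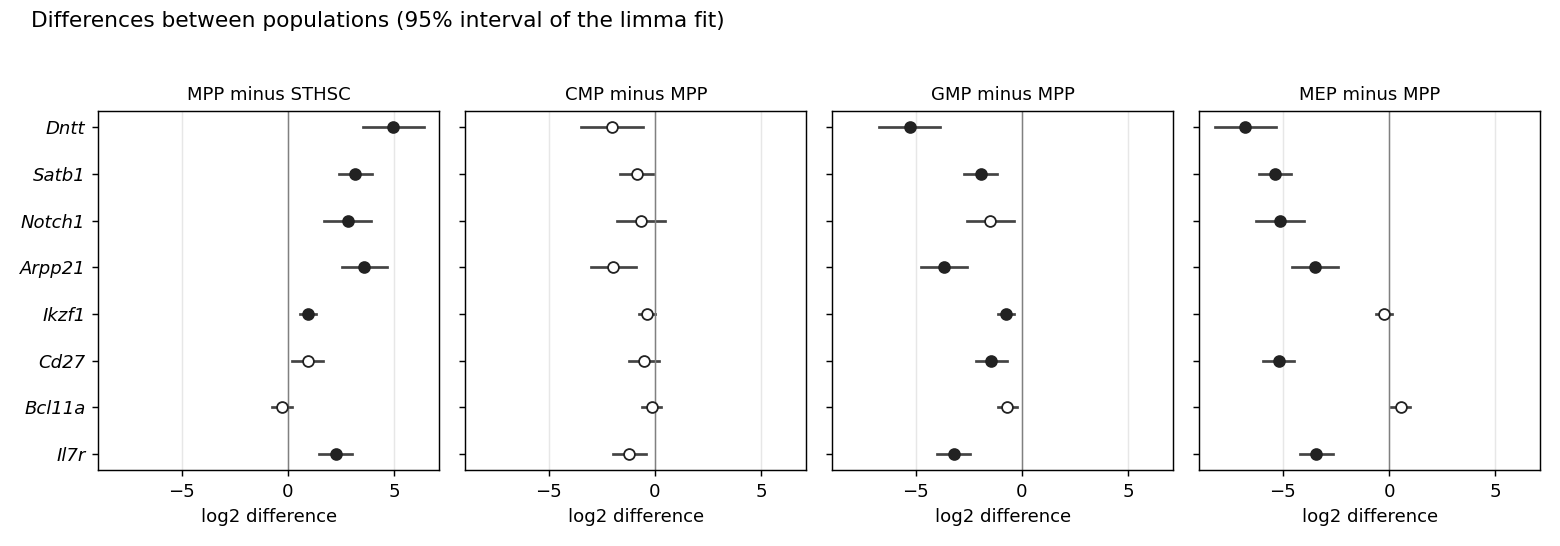
Log2 difference between populations (horizontal axes) for the brightest probe of each of the 8 measured genes (vertical axis), with points for the limma estimate and bars for its 95% interval, filled where the adjusted p is under 0.05. Dntt, Satb1, Notch1, Arpp21, Il7r and Ikzf1 are called higher in MPP than in STHSC, no point is filled for CMP, and Ikzf1 lies at -0.23 in MEP here but at 0.66 with 75th percentile scaling.

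Loss in the committed progenitors was measured as the mean of CMP, GMP and MEP minus MPP. Of 17 member probes 11 were lower and 0 higher, in 7 of 8 genes, where 14.9% of all tested probes were called lower and 14.2% higher. The members' median was -2.52, or -2.28 with signals that were not detected raised to the lowest detected signal, and that of all tested probes was 0.05. Dntt, Arpp21 and Il7r were each detected on 3 of the 6 arrays of committed progenitors and Notch1 on 5, so their folds are bounds. Dntt was at least 16.7-fold lower (limma adjusted p = 4.11e-04), Arpp21 at least 5.86-fold (adjusted p = 8.62e-04), Il7r at least 4.53-fold (adjusted p = 3.31e-04) and Notch1 at least 4.33-fold (adjusted p = 0.00278). Satb1 was 6.62-fold lower (-2.73, SE 0.28, limma adjusted p = 2.51e-04) and Cd27 5.22-fold lower (-2.38, SE 0.26, adjusted p = 3.68e-04). Ikzf1 was called lower by 1 of 5 probes (-0.46, SE 0.14, limma adjusted p = 0.0326) and stood at 0.12 when arrays were scaled to their 75th percentile instead of by quantiles, a scaling under which all tested probes had a median of 0.29 and 5817 were called higher and 2182 lower, against 2650 and 2775 with quantiles. Bcl11a differed by -0.10 (SE 0.17, limma adjusted p = 0.693) and by 0.37 under that scaling. Without the A/- GMP and +/+ MEP arrays all 8 measured members were called by at least 1 probe.

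Each committed population was also set against the MPP arrays, which these 3 contrasts share. In CMP, 0 of 17 member probes were called by limma at an adjusted p under 0.05, while 8 had an unadjusted p under 0.05, all lower, and 1.59% of all tested probes were called lower and 0.182% higher. Dntt was -2.02 from MPP (SE 0.65, limma adjusted p = 0.152), Arpp21 -1.95 (SE 0.48, adjusted p = 0.0801), Il7r -1.21 (SE 0.35, adjusted p = 0.117) and Satb1 -0.86 (SE 0.34, adjusted p = 0.225). Without the A/- GMP and +/+ MEP arrays Dntt, Arpp21 and Il7r were called (limma adjusted p = 0.00322, 0.0193 and 0.0492). The same 3 were called without background correction and in the authors' processed table.

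In GMP 11 member probes of 7 genes were lower than in MPP, where 5% of all tested probes were called lower and 1.85% higher. Dntt, Arpp21 and Il7r were detected in A/- GMP and not in +/+ GMP. With that array at its lowest detected signal, Dntt was at least 27.1-fold lower (limma adjusted p = 0.00178), Arpp21 at least 7.90-fold lower (adjusted p = 0.00234) and Il7r at least 6.89-fold lower (adjusted p = 9.27e-04). Satb1 (-1.95, SE 0.34, limma adjusted p = 0.0107), Cd27 (-1.44, SE 0.32, adjusted p = 0.0273) and Ikzf1 (-0.77, SE 0.17, adjusted p = 0.0261) were also lower. Bcl11a was called by ILMN_1257463 (-0.89, SE 0.16, limma adjusted p = 0.0132) and not by its brightest probe (-0.68, SE 0.21, adjusted p = 0.0788). Notch1 was -1.48 from MPP (SE 0.50, limma adjusted p = 0.105). Members called numbered 4 without A/- MPP and 4 without +/+ GMP, and 6 without the A/- GMP and +/+ MEP arrays.

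MEP had the lowest levels of Satb1, Cd27 and Notch1, and no detected signal of Dntt, Il7r or Arpp21. There 10 member probes of 6 genes were lower than in MPP, where 22.9% of all tested probes were called lower and 25.2% higher. Satb1 was 41.4-fold lower (-5.37, SE 0.34, limma adjusted p = 4.13e-06) and Cd27 36.4-fold lower (-5.19, SE 0.32, adjusted p = 3.70e-06). Notch1 was detected on 1 of 2 MEP arrays and was at least 18.5-fold lower (limma adjusted p = 3.5e-05). Dntt, Arpp21 and Il7r were detected on neither MEP array and were at least 42.6-fold, 6.61-fold and 5.81-fold lower (limma adjusted p = 3.14e-05, 2.87e-04 and 4.32e-05). Ikzf1 was -0.23 from MPP (SE 0.17, limma adjusted p = 0.281), and 0.66 with 75th percentile scaling, where all tested probes had a median of 0.48. Bcl11a was 0.54 from MPP (SE 0.21, limma adjusted p = 0.0512) and was called higher without the A/- GMP and +/+ MEP arrays (0.61, adjusted p = 0.0285). The 6 members called lower without those 2 arrays included Satb1 (-6.09) and Cd27 (-5.93). The MEP array that then remained, of A/- cells, gave no detected signal for Notch1, Dntt, Arpp21 and Il7r.

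Of the wider lymphoid lists, 5 of 9 B lineage genes were lower in the committed progenitors and 0 higher, namely Ly6d (at least 2.99-fold), Cd79b (at least 2.69-fold), Vpreb3 (at least 2.32-fold), Pou2af1 (at least 2.26-fold) and Rag1 (at least 1.63-fold). Of 14 specification factors 7 were lower and 0 higher, with Sox4 (-1.94), Mef2c (-1.49) and Hhex (-1.16) first. Of 5 T lineage genes 2 were lower, Cd3d (at least 1.36-fold) and Gata3 (at least 1.55-fold), a factor of T cells. Of 6 receptor and signalling genes 2 were lower, Jak3 (-1.96), the kinase that acts with the IL-7 receptor, and Cxcr4 (-0.56). Of 7 Notch pathway genes 1 was called lower and 0 higher, the ligand gene Jag2, which was detected on none of the 6 arrays of committed progenitors. With those signals raised to the lowest detected signal, its difference from MPP (mean 5.88) turned to 0.25, so no fold is given. In the same comparison 7 of 14 granulocyte and monocyte markers were lower and 0 higher, with the granule protein genes Ltf (at least 61.5-fold) and Camp (detected on 4 of the 6 arrays) first, and 5 of 10 erythroid and megakaryocyte markers were higher and 0 lower. Their part in the members' differences was not tested.

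The A/- minus +/+ comparison asked whether the genes differed with c-Cbl genotype over the 6 population pairs. Limma called 0 of 17 member probes, and 1 had an unadjusted p under 0.05, where 0.654% of all tested probes were called in either direction. Beside this, 0 of 14 granulocyte and monocyte markers were called, 10 had an unadjusted p under 0.05, and their median was -1.29. Their part in the members' values was not tested. The median of the members' brightest probes was 0.11 and that of all tested probes 0.02. Dntt had the smallest p, with a difference of 0.86 (SE 0.37, 95% interval 0.03 to 1.70, A/- above +/+ in 5 of 6 pairs) with an unadjusted p = 0.0431 and a limma adjusted p = 0.310. Il7r differed by 0.42 (SE 0.20, higher in 5 of 6 pairs, limma adjusted p = 0.352) and Arpp21 by 0.49 (SE 0.28, higher in 4 of 6 pairs, adjusted p = 0.423). These counts include pairs in which neither array detected the probe, the MEP pair for all 3 genes and the STHSC pair for Arpp21. Notch1 differed by -0.42 (SE 0.29, lower in 3 of 6 pairs, limma adjusted p = 0.503). The other 4 brightest probes lay between -0.16 and 0.16, Satb1 at -0.02 (SE 0.20), Ikzf1 at 0.06 (SE 0.10), Cd27 at -0.16 (SE 0.19) and Bcl11a at 0.16 (SE 0.12). The 95% interval of Satb1 ran from -0.46 to 0.42, so these arrays do not exclude a difference of either sign within it.

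Pair by pair, the values lay far apart in GMP and MEP. Dntt was at 8.09 in A/- GMP and not detected in +/+ GMP, a difference of at least 4.42-fold, and the A/- minus +/+ difference was 0.41, 0.30, 0.76 and 0.99 in LTHSC, STHSC, MPP and CMP. Arpp21 and Il7r were likewise detected in A/- GMP and not in +/+ GMP, with bounds of at least 1.26-fold and 1.28-fold. These were the 3 members at least 2-fold higher in A/- GMP by their measured signals, against 3.88% of all tested probes. In MEP, Satb1 (-1.21), Notch1 (-2.21, at least 1.30-fold lower) and Cd27 (-1.40) were lower in A/-, where 4% of tested probes were at least 2-fold lower. In CMP 1 member, Arpp21 (1.10), was at least 2-fold higher in A/- (1.3% of tested probes), and in MPP 1, Ikzf1 by ILMN_1255419 (1.31, 1.94% of tested probes). The other tested Ikzf1 probes lay between -0.20 and 0.58 in the MPP pair, with both signs among them. In LTHSC and STHSC 0 member probes differed by 2-fold, where 3.52% and 3.76% of tested probes did in either direction. Single pairs have no test.

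The arrays of the GMP and MEP pairs also differed in the marker lists, though not they alone. The granulocyte and monocyte sum was 140879 in A/- STHSC against 237410 in +/+ STHSC. It was 218616 in A/- MPP against 308011 in +/+ MPP. In A/- GMP the sum of stem cell markers was 4211 against 2090 in +/+ GMP, beside the higher erythroid and megakaryocyte sum given above, while the granulocyte and monocyte sum was 166751 against 245670. The granule protein gene Camp was not detected in A/- GMP and was at 12.29 in +/+ GMP. In the MEP pair Mpo, the myeloperoxidase gene of granulocyte precursors, was at 10.95 in A/- and 14.86 in +/+. Their part in the pair differences was not tested. Without the GMP and MEP pairs the genotype fit called 0 members, and Dntt stood at 0.62 (SE 0.16, limma adjusted p = 0.284). Il7r stood at 0.41, Arpp21 at 0.42 and Notch1 at -0.01, while Satb1 moved to 0.22 and Cd27 to 0.08. The genotype difference in committed progenitors minus that in LSK cells was called for 0 of 17 member probes, with 0 at an unadjusted p under 0.05 and a smallest limma adjusted p of 0.662, and for 0.00536% of all tested probes.

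**Figure D4:**
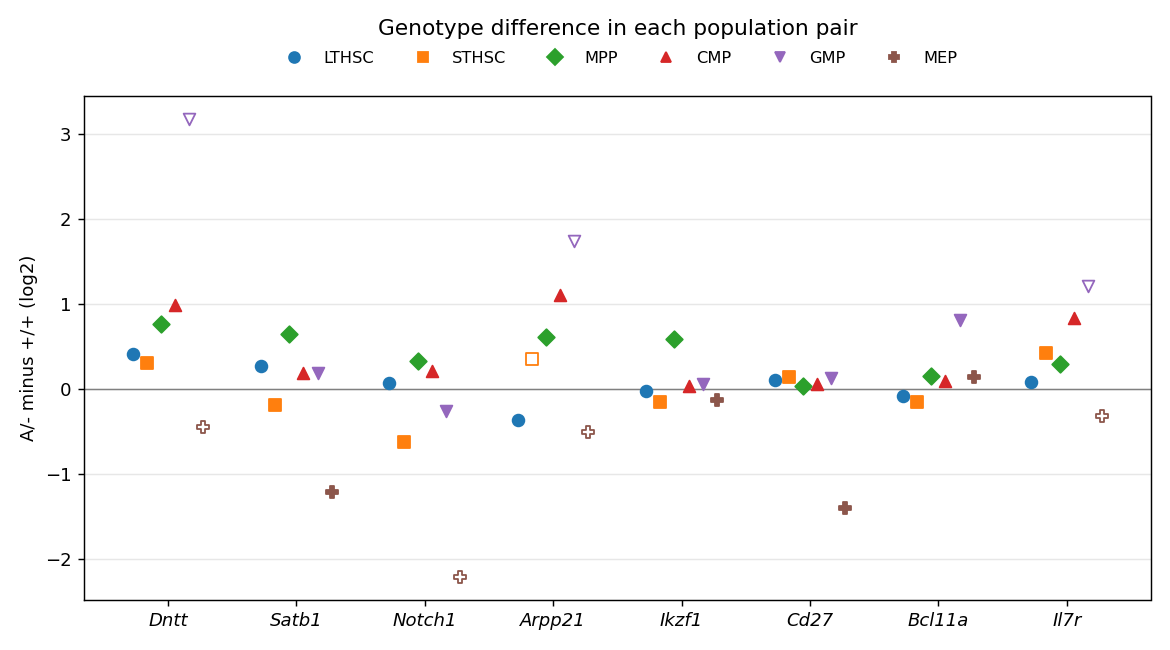
A/- minus +/+ log2 difference (vertical axis) of the brightest probe of each of the 8 measured genes (horizontal axis), with 1 point for each population pair, open where the probe was not detected on at least 1 array of the pair. The GMP pair gives the highest point for Dntt (3.17), Arpp21 (1.74), Il7r (1.21) and Bcl11a (0.81), and the MEP pair the lowest for Satb1, Notch1 and Cd27.

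Among the wider lymphoid lists, limma called 1 gene between genotypes, Igll1, a surrogate light chain gene of B cell precursors, which was at least 4.02-fold lower in A/- (adjusted p = 0.0208). It was at 5.96, 5.95, 6.18, 5.42, 5.82 and 5.41 on the A/- arrays from LTHSC to MEP, and at 9.83, 7.49, 8.90, 8.06, 6.76 and 7.44 on the +/+ arrays. It was lower in A/- in each pair and not detected in A/- CMP, GMP and MEP. Vpreb1, its partner, differed by -1.34 (SE 0.32, limma adjusted p = 0.106). The members Dntt and Il7r, with values above 0 in 5 of 6 pairs, did not share that direction. In the B lineage list 5 of 9 genes had an unadjusted p under 0.05, and its median was -0.64 against 0.02 over all tested probes. Limma called 0 of 14 specification factors (2 with an unadjusted p under 0.05), 0 of 5 T lineage genes (3), 0 of 6 receptor and signalling genes (3) and 0 of 7 Notch pathway genes (0).

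The -/- LTHSC array was set beside the other LTHSC arrays, with 1 array each and no test. Dntt was not detected in -/- LTHSC (5.46), and was at 7.40 in A/- LTHSC and 6.99 in +/+ LTHSC, at least 3.81-fold and 2.87-fold lower in -/-. Arpp21 was also not detected in -/- LTHSC (5.39), at least 1.88-fold below A/- (6.38) and 2.43-fold below +/+ (6.75). These were the 2 members at least 2-fold lower in -/- than in +/+, where 2.05% of tested probes were. Against A/- LTHSC only Dntt passed that size, with 2.27% of tested probes. Il7r was at 5.70 in -/- LTHSC, against 6.58 in A/- and 6.50 in +/+, and Satb1 at 11.02, against 11.67 and 11.41. The other measured members differed from +/+ by between -0.34 (Notch1) and 0.08 (Cd27). By the authors' processed values, 0 members were 2-fold lower in -/- than in +/+.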

How the data were processed

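Illumina bead arrays measured 13 samples. Per the labels' protocols, RNA purified on columns was made into biotinylated cRNA. The authors deposited unnormalized probe intensity values, each with its detection p-value, per the file headers. The sources used here do not give the scanner software. A second deposited table holds intensity values that the authors had brought to a common distribution, separately for the LTHSC arrays and for the others, and served as an alternative. Unnormalized medians were 51.7 to 52.9 on the LTHSC arrays and 148.31 to 191.03 on the others, and 30.4% to 38.0% of probes were detected.

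In R 4.3.3 and limma 3.58.1, with 45281 probes (326 empty lines left out), neqc took the background from the detection p, added an offset of 16, normalized by quantiles and took log2, so all differences are relative. The platform annotation gave 34885 probes 1 symbol, 18 several and 10378 none. Of these 34807 matched RefSeq by Entrez number and 0 symbols changed. Probes with a detection p under 0.01 on at least 2 arrays were tested. lmFit and eBayes with trend fitted population and genotype over 12 arrays, with 5 residual degrees of freedom, and a second fit gave LSK and committed cells a genotype effect each. Population is thus the block of the genotype comparison, because each population gave 1 array of each genotype. The -/- array has no partner outside LTHSC and was left out of the fits. Adjustment was over all tested probes at 0.05. A fold that involves a signal not detected is given as a bound, from the array's lowest detected signal. The fits were tested on simulated data.

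The text names every member probe, the listed pathway genes past the threshold (at most 5 each way), 6 further genes, and the 3 probes of other genes most correlated with each member. The members and lists were chosen with earlier results of these data known. Other scalings, background settings, filters, probe choices, variance models and left-out arrays were tried. Leaving out the A/- GMP and +/+ MEP arrays, or both pairs, was chosen after seeing the data.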

Additional observations from a re-analysis of the deposited data

Results flagged for a closer look

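In 4 of the 17 tested member probes, 1 of the 6 population pairs lay far from the other 5 in its A/- minus +/+ difference, by a test of the gap against the range (Dixon's test), which chance alone passes in about 1 in 20 groups. The MPP pair stood apart for Ikzf1, at 0.58 by ILMN_2584685 and at 1.31 by ILMN_1255419. The gene's other tested probes gave -0.18 (ILMN_1256645), -0.20 (ILMN_3127790) and 0.23 (ILMN_3051466) in that pair, so its probes disagree in sign there. The MEP pair stood apart for Cd27, at -1.40 by ILMN_3128992, where the other pairs lay between 0.03 and 0.14. Its other probes were not flagged. In that pair they gave -0.60 (ILMN_1233589, not detected in A/- MEP) and 0.09 (ILMN_3052501, detected on neither MEP array). The GMP pair stood apart for Bcl11a, at 0.81 by ILMN_2712044. The arrays of the MEP and GMP pairs differed in marker levels, as did those of other pairs. The part of that in these values was not tested.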

How the results depend on the processing

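The genotype comparison and its difference between committed and LSK cells called 0 members under each alternative run, including the fit without the replicate block of population (0 members, and 4 higher and 11 lower of all probes, against 37 and 85 with the block). MPP minus STHSC had 6 members called with 1 probe a gene and 7 under the other alternatives on all 12 arrays, and 0 to 7 when 1 array was left out. CMP minus MPP ranged from 0 to 1 and GMP minus MPP from 4 to 7 when 1 array was left out. CMP minus MPP had 1 member called with cyclic loess, 3 without background correction, 3 in the authors' processed table and 3 without the A/- GMP and +/+ MEP arrays. The -/- LTHSC count of 2 was 0 in the authors' processed table. Scaling to the 75th percentile shifted the median of all probes to 0.29 (committed minus MPP), 0.19 (CMP), 0.23 (GMP) and 0.48 (MEP). It turned Ikzf1 to 0.12 (committed), 0.0102 (CMP) and 0.66 (MEP), and Bcl11a to 0.37 (committed) and 0.14 (CMP). Its calls over all probes were 1672 higher and 937 lower in GMP, against 345 and 932 with quantiles, 7887 and 3223 in MEP, against 4695 and 4272, and 186 and 384 in CMP, against 34 and 297. The Satb1 genotype difference turned to 0.0564 without background correction, 0.0415 in the authors' processed table and 0.22 without the GMP and MEP pairs, where that of Cd27 turned to 0.0809. Leaving out 1 pair at a time gave -0.15 to 0.22 for Satb1, -0.0430 to 0.10 for Ikzf1 and -0.22 to 0.0889 for Cd27. Leaving out 1 array gave -0.54 to 0.0799 for Ikzf1 in MEP minus MPP and -0.23 to 0.0308 for Bcl11a in committed minus MPP. Over all probes the genotype calls were 37 higher and 85 lower. They were 261 and 484 without the LTHSC pair, 3 and 5 without the CMP pair, 85 and 135 with 75th percentile scaling, 57 and 137 without background correction, 57 and 140 in the authors' table, and 8 and 17 without the mean-variance trend. MPP minus STHSC had 458 and 404, and 15 and 4 without A/- STHSC and 942 and 1289 without +/+ MPP. The cause of these shifts was not tested. Signals near background limit Dntt, Arpp21 and Il7r in MEP and +/+ GMP.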
